A study of Mus musculus with 6 samples.

Results

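The genes described here encode the channels, the pump subunit and the water pores that move salt and water across the lung lining: Scnn1a, Scnn1b, Scnn1g, Cftr, Aqp1, Aqp3, Aqp4, Atp1b1 and Slc12a2. They were chosen by gene symbol, 9 of the 49568 symbols in the table of read counts, and all 9 were among the 19199 genes that passed a filter on low counts and were tested. Whole lungs of 4-month-old female mice on a C57BL/6 background were compared by bulk RNA-sequencing, with 3 mice that carry a human TNF transgene (TNF-Tg, here TNF+) and 3 wildtype littermates (WT, here TNF-). Each library came from 1 mouse, and the labels also call the samples primary cells. The transgene overexpresses human TNF and models inflammatory arthritis with pulmonary vascular disease. The promoter that drives it is not given in the sources used here, and the human transcript was not analysed here.

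Air spaces work in gas exchange only while the liquid on their epithelium is kept thin. Sodium enters alveolar and airway epithelial cells through the epithelial sodium channel ENaC on the air side and is pumped out on the blood side by the Na,K-ATPase, and water follows through aquaporins and between cells. Chloride can move in either direction through CFTR, and the cotransporter encoded by Slc12a2 (NKCC1) loads chloride into cells from the blood side, so that epithelia can also secrete liquid.

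The libraries held 25396923 to 32529408 counted reads per lung, and every TNF+ lung held fewer than every TNF- lung. Values per lung are normalized counts, that is counts divided by the library total scaled with edgeR's TMM factor and multiplied by the mean of that scaled total over the 6 lungs. The mouse gene symbol Tnf stood at 140, 220 and 382 normalized counts in TNF+ replicates 1, 2 and 3, and at 15.3, 13.4 and 31.1 in those of TNF-. Whether reads of the human transgene were counted there was not tested. In TNF+ replicate 1, 5.22% of the counts lay on Gm42418, against at most 0.274% in any other lung. TNF- replicate 1 held 56570 counts of Krt4 and 45433 of Krt13, keratins of squamous epithelium, where no other lung held more than 8 of either, and its summed skeletal muscle markers stood at 60492 normalized counts against 498 to 1543 in the others.

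Of the 9 genes, 6 were lower in TNF+ lungs at an adjusted p under 0.05 (edgeR, p-values of the quasi-likelihood fit corrected by Benjamini-Hochberg across the whole table), 0 were higher and 3 did not pass. Among all tested genes 23.4% were lower, 24.0% were higher and 47.4% were called in either direction. The genes that fell were the ENaC subunits Scnn1a, Scnn1b and Scnn1g, the water channels Aqp1 and Aqp4, and the pump subunit Atp1b1. The chloride channel gene Cftr, the chloride loader Slc12a2 and the water and glycerol channel Aqp3 did not pass. The median log2 fold change of the 9 genes was -1.01, and that of all tested genes was 0.03. At a log2 fold change of at least 1 in either direction 5 of the 9 were called, against 22.5% of all tested genes. The genotypes did not overlap in 7 of the 9 genes, as in 58.7% of all tested genes. In 6 genes every TNF+ lung lay below every TNF- lung, as in 28.2% of all tested genes, and in Cftr every TNF+ lung lay above, as in 30.5%. Whole lung holds many cell types, and in bulk RNA fewer cells of a type and less RNA per cell cannot be told apart.

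**Figure D1:**
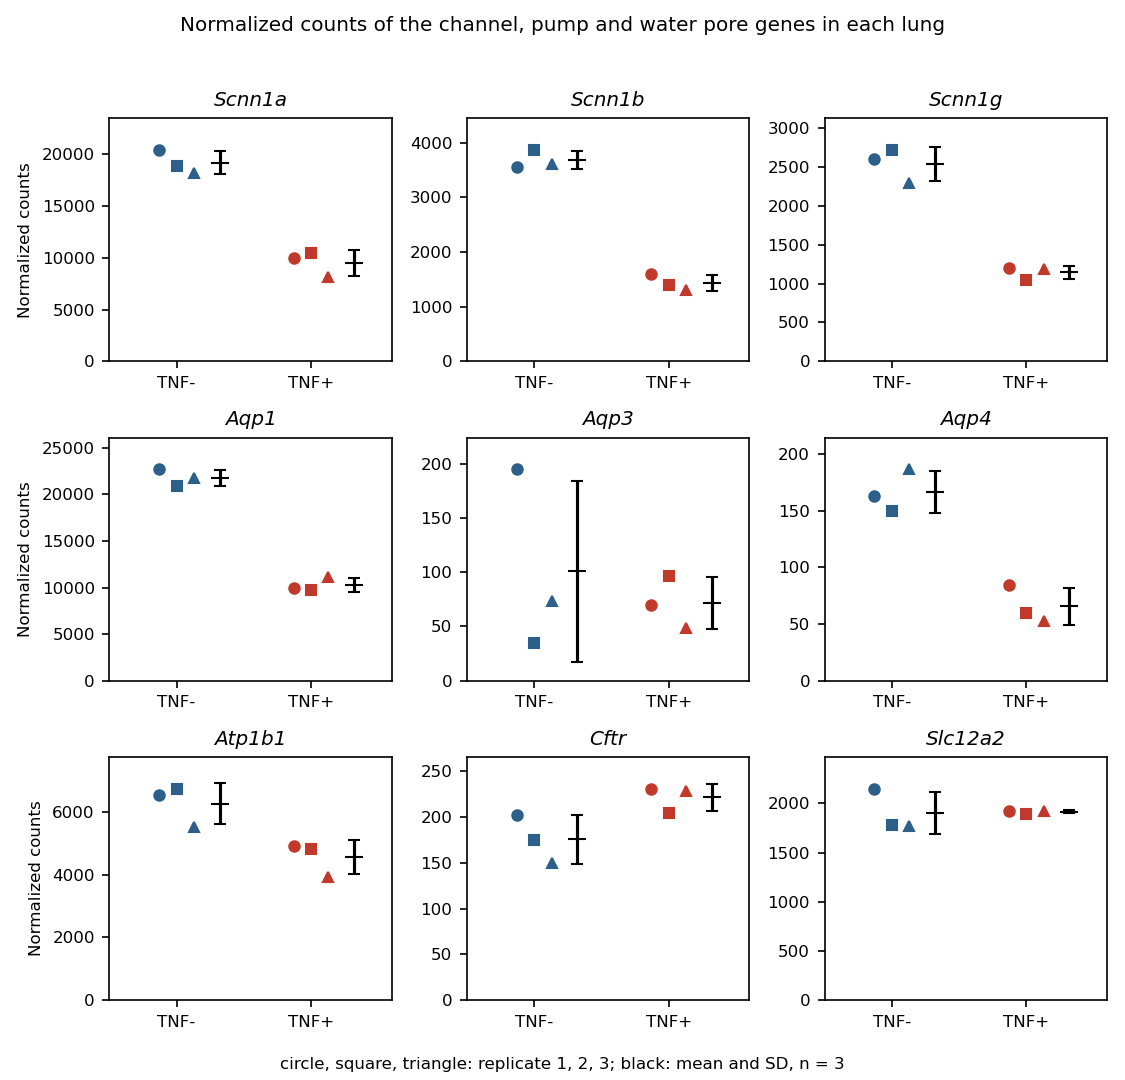
Normalized counts (y axis, from 0) of the 9 genes in each lung, with TNF- lungs in blue and TNF+ lungs in red, the symbol marking the replicate number and the black bar the mean with its SD (n = 3). The groups are apart for the ENaC subunits, Aqp1, Aqp4 and Atp1b1, just apart the other way for Cftr (204.8 in the lowest TNF+ lung and 202.6 in the highest TNF- lung), and mixed for Aqp3 and Slc12a2.

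Log2 fold changes of the 9 genes are given with ± their standard error. ENaC is built from alpha, beta and gamma subunits encoded by Scnn1a, Scnn1b and Scnn1g. The alpha subunit is needed for a working pore, and the beta and gamma subunits raise the number of channels at the cell surface. Scnn1a lies on chromosome 6 of GRCm38 (125320659 to 125344943, plus strand). Scnn1g (chromosome 7, 121734479 to 121768475, plus strand) and Scnn1b (chromosome 7, 121865038 to 121918514, plus strand) are neighbours, 96.6 kb apart. The gene Cog7 overlaps Scnn1b on the opposite strand and had 803 to 1487 counts per lung. The libraries were stranded, but the strand setting of the counting is not given in the sources used here.

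The promoters of Scnn1g and Scnn1b are shown because these neighbouring genes both fell, beside those of Aqp1, which also fell, and Cftr, which did not pass the test. RefSeq's table of GRCm38.p6 held promoters for 6 of the 9 genes: Scnn1b, Scnn1g, Cftr, Aqp1, Aqp3 and Atp1b1. Each window runs from 250 bases before RefSeq's transcription start to 50 bases after it and is written in the direction of the gene, which for these 4 is the plus strand. Capitals mark GGGCGG on either strand, the GC box that Sp and KLF factors can bind, overlapping matches included. The windows are chr7:121734229-121734528 for Scnn1g, chr7:121864788-121865087 for Scnn1b, chr6:55336049-55336348 for Aqp1 and chr6:18170437-18170736 for Cftr.
Scnn1g: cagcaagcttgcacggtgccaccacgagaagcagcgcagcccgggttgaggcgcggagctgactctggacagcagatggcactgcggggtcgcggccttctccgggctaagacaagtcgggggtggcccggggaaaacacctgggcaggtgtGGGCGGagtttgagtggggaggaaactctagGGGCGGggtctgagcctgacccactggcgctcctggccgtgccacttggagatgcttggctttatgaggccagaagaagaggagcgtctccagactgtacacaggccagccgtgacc
Scnn1b: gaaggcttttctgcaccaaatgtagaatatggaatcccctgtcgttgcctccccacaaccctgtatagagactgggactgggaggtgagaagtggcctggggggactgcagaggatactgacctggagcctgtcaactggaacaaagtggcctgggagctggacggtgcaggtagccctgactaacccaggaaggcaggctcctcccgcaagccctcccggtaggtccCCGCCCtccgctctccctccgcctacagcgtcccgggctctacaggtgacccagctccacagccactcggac
Aqp1: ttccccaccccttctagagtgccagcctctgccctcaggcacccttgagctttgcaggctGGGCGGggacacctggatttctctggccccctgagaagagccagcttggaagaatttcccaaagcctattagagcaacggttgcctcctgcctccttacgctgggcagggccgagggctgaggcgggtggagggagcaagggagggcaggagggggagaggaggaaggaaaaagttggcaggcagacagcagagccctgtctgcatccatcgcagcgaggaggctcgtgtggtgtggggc
Cftr: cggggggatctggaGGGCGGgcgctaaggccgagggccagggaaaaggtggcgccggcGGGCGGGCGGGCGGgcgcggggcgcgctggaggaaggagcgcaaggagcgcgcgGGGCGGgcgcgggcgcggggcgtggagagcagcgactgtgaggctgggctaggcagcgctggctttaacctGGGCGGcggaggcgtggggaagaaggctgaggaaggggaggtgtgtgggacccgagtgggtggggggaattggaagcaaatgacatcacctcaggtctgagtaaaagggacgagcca
The GC content of these windows was 64.7% for Scnn1g, 61.7% for Scnn1b, 62.7% for Aqp1 and 71.3% for Cftr, above the median of 52.7% over 32817 promoters of this length. GGGCGG occurred in 6 of the 6 promoters held, and in 35.6% of all promoters. TATAAA, the TATA box, occurred in 1 of 6 (Aqp3) and in 13.6% of all, searched on both strands. The glucocorticoid receptor half-site AGAACA was in 0 of 6 windows (19.0% of all), also searched on both strands. These matches describe letters in the windows, not sites of binding.

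Scnn1a had 9977, 10422 and 8122 normalized counts in TNF+ lungs against 20414, 18888 and 18225 in TNF- lungs (replicates 1, 2 and 3 in this order here and in what follows). The highest TNF+ lung stood well under the lowest TNF- lung, and the mean of 9507 ± 1220 (SD, n = 3) was 49.6% of the TNF- mean of 19176 ± 1123 (SD, n = 3). On the log2 scale the fold change with its standard error was -1.01 ± 0.13 (edgeR adjusted p = 0.000516).

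Scnn1b had 1597, 1405 and 1310 normalized counts against 3556, 3869 and 3623. Its mean fell to a lower share than those of the other subunits, 39.0% of the TNF- mean, a log2 fold change of -1.36 ± 0.10 (edgeR adjusted p = 3.68e-05). Scnn1g had 1196, 1043 and 1188 normalized counts against 2605, 2718 and 2296. Its TNF+ lungs lay close together, at 45.0% of the TNF- mean, with a log2 fold change of -1.15 ± 0.10 (edgeR adjusted p = 7.58e-05).

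The balance between the subunits was read as a ratio within each lung, which does not depend on how libraries are scaled. Scnn1b stood at 0.160, 0.135 and 0.161 times the Scnn1a count in TNF+ lungs and at 0.174, 0.205 and 0.199 times in TNF- lungs. Every TNF+ lung thus held less Scnn1b per Scnn1a than any TNF- lung, with a difference of -0.34 on the log2 scale (exact permutation p = 0.1, two-sided, the lowest value possible with 3 lungs against 3, and 0.175 after Benjamini-Hochberg adjustment over 14 ratios). The Scnn1g to Scnn1a ratio overlapped between the groups (difference -0.13, exact permutation p = 0.5, adjusted p = 0.636). Scnn1g per Scnn1b was 0.742 to 0.907 in TNF+ lungs and 0.634 to 0.733 in TNF- lungs, groups that did not overlap (difference 0.21 on the log2 scale, exact permutation p = 0.1, adjusted p = 0.175). Without TNF+ replicate 3 this difference was 0.12.

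Per kilobase of the longest annotated transcript, Scnn1a was the highest of the subunits in both genotypes. Its level per kilobase was 5480 ± 321 normalized counts in TNF- lungs, compared with 2717 ± 349 in TNF+ lungs. Scnn1b followed at 1421 ± 63.7 and 555 ± 56.3, and Scnn1g at 849 ± 73.0 and 382 ± 28.7, each as mean ± SD of 3 TNF- and 3 TNF+ lungs. The lungs of neighbouring subunits in this order did not overlap in either genotype.

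The Na,K-ATPase is an alpha and beta subunit pair, and Atp1b1 encodes the beta subunit that carries the pump to the membrane of most epithelia. It lies on chromosome 1 (164437109 to 164458355, minus strand), where its end overlaps Nme7 on the plus strand, a gene with 146 to 262 counts per lung. Atp1b1 had 4912, 4828 and 3928 normalized counts against 6560, 6745 and 5526. Its fold change was the smallest of the genes that passed, with a mean at 72.6% of the TNF- mean, a log2 fold change of -0.46 ± 0.13 (edgeR adjusted p = 0.0189). The call was lost without TNF- replicate 2 (log2 change -0.41, edgeR adjusted p = 0.0685) and without both lungs numbered 1 (log2 fold change -0.53, adjusted p = 0.0576).

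Other pump genes went in both directions. Of 12 tested Na,K-ATPase and FXYD genes beside Atp1b1, 5 were lower, 3 were higher and 4 did not pass. Among all tested genes 23.4% were lower and 24.0% higher. Atp1b3, an alternative beta subunit, had a log2 fold change of 0.21 (adjusted p = 0.086 by edgeR).

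Among the falls in that list were those of Fxyd7 (log2 change -2.02, adjusted p = 0.00122) and Fxyd3 (log2 change -2.02, adjusted p = 0.000735 by edgeR), small membrane proteins of the family that modulates the pump. Among the rises were those of Fxyd2, which encodes the gamma modulator of the pump (674, 1010 and 956 normalized counts against 35.4, 61.3 and 41.8, log2 change 4.25, edgeR adjusted p = 1.29e-05), and of Fxyd5 (log2 change 0.83, edgeR adjusted p = 0.00108). Summed leukocyte markers stood at 32663 to 40467 normalized counts in TNF+ lungs and 7425 to 9394 in TNF- lungs, with 5 of 7 markers higher and 1, Gzma, lower, and their part in these rises was not tested.

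Aquaporins are water channels, and the 3 among the 9 genes sit in different cells: Aqp1 in capillary endothelium, mesothelium and red cells, Aqp4 on the blood side of airway epithelium and in skeletal muscle, and Aqp3, which also passes glycerol, in basal and squamous epithelium. Aqp1 (chromosome 6, 55336432 to 55348555, plus strand) had 9909, 9685 and 11109 normalized counts against 22681, 20922 and 21741. The values within each genotype lay close together, and the TNF+ mean was 47.0% of the TNF- mean (log2 fold change -1.09 ± 0.11, edgeR adjusted p = 0.000171).

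Aqp4, on chromosome 18, had 84.4, 60.0 and 52.9 normalized counts against 163, 149.5 and 187, which is 39.5% of the TNF- mean. The groups did not overlap, and the log2 fold change was -1.35 ± 0.23 (edgeR adjusted p = 0.00184). Of the skeletal muscle markers 8 of 8 were highest in TNF- replicate 1, and Aqp4 was highest in TNF- replicate 3. The part of muscle in the Aqp4 values was not tested. Without TNF- replicate 1 the log2 change of Aqp4 was -1.39 (edgeR adjusted p = 0.00492).

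Aqp3 (chromosome 4, 41092722 to 41098183, minus strand) had 69.9, 96.2 and 48.1 normalized counts against 195, 34.5 and 73.8. The TNF- lungs spanned the whole TNF+ range, and the log2 fold change of -0.50 ± 0.57 (95% confidence interval -1.81 to 0.81) had an adjusted p of 0.496 by edgeR. The highest value belonged to TNF- replicate 1, the lung with the squamous keratins, where the summed squamous markers stood at 108967 normalized counts against 334 to 937 in the others. Without that lung the log2 fold change of Aqp3 was 0.36 (adjusted p = 0.522 by edgeR). The squamous list was chosen with the keratin counts of that lung known, and the part of squamous tissue in the Aqp3 values was not tested.

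**Figure D2:**
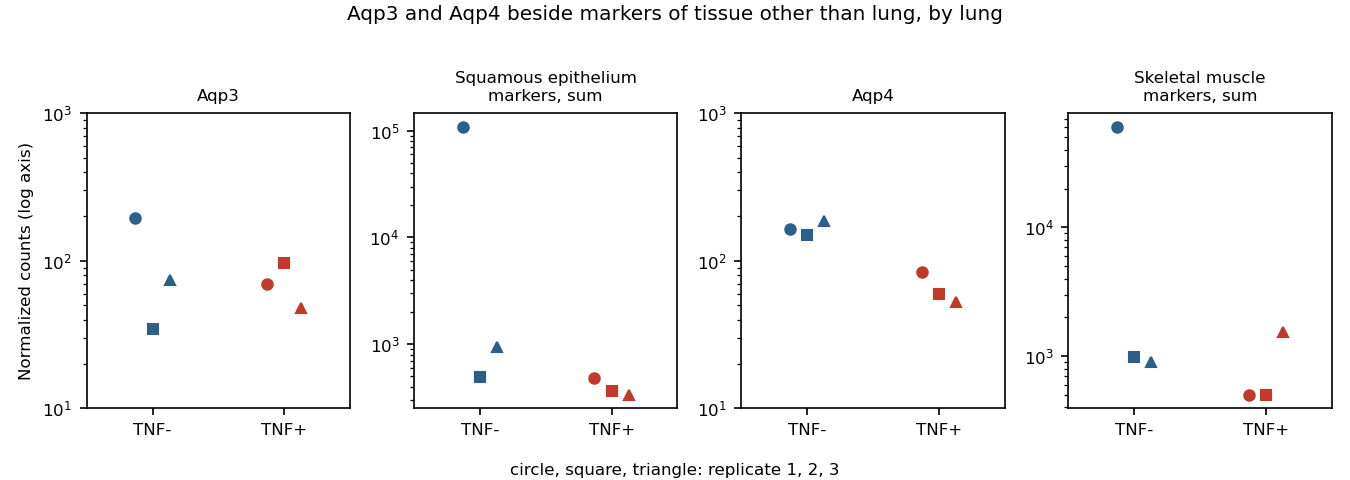
Normalized counts on log axes of Aqp3, the sum of 8 squamous epithelium markers, Aqp4 and the sum of 8 skeletal muscle markers in each lung, TNF- in blue and TNF+ in red, with circles for replicate 1. TNF- replicate 1 is highest for Aqp3 and for both marker sums, but lies between the other TNF- lungs for Aqp4.

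Among the aquaporins that were listed beside these, Aqp5, the water channel on the air side of alveolar type 1 cells, had 2546, 2233 and 2369 normalized counts against 8024, 8846 and 9396. Its fall was the largest among the aquaporins tested (log2 change -1.88, edgeR adjusted p = 1.18e-05). Aqp11, an intracellular aquaporin, was lower as well, at 50.1% of the TNF- mean (edgeR adjusted p = 0.00569), and Aqp9, a channel for water and small solutes, did not pass (log2 change 0.08, adjusted p = 0.829). The remaining 6 of the 12 aquaporin genes were too low to be tested.

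Cftr encodes the chloride channel that is lost in cystic fibrosis. It lies on chromosome 6 (18170687 to 18322768, plus strand) and had 231, 205 and 228 normalized counts against 203, 174 and 149. The TNF+ mean was 126% of the TNF- mean, but the log2 fold change of 0.34 ± 0.17 (95% confidence interval -0.05 to 0.72) did not pass (adjusted p = 0.132 by edgeR). Slc12a2, on chromosome 18, had 1922, 1897 and 1923 normalized counts against 2147, 1783 and 1768. The genotypes overlapped, and the log2 fold change was 0.01 ± 0.10 (95% confidence interval -0.22 to 0.24, edgeR adjusted p = 0.937).

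Set against Scnn1a in the same lung, the chloride genes and Atp1b1 stood higher in TNF+ lungs, a comparison chosen after these values were seen and given without a test. Cftr was 0.0196 to 0.0281 times Scnn1a in TNF+ lungs and 0.00819 to 0.00992 times in TNF- lungs. Slc12a2 was 0.182 to 0.237 times Scnn1a against 0.0944 to 0.105 times, and Atp1b1 was 0.463 to 0.492 times against 0.303 to 0.357 times. The ratios of Aqp1 to Scnn1a overlapped between the genotypes, at 0.929 to 1.37 and 1.11 to 1.19, and so did those of Aqp4.

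Of 15 other chloride, bicarbonate and cation-chloride transport genes tested, 6 were lower, 1 was higher and 8 did not pass. The shares over all tested genes were 23.4% lower and 24.0% higher. The largest falls were in Ano1, a calcium-activated chloride channel (log2 change -1.26, edgeR adjusted p = 4.32e-05), Slc9a2, a sodium-proton exchanger (-1.11, adjusted p = 0.012) and Slc26a9, a chloride transporter of airway epithelium (-0.90, adjusted p = 0.00582). The gene that rose was Slc12a3, the thiazide-sensitive sodium chloride cotransporter, from 9.6 to 13.3 normalized counts in TNF- lungs to 31.2 to 58.9 in TNF+ lungs (log2 change 2.07, edgeR adjusted p = 0.00185).

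Genes that act on ENaC made up the longest list. Of 19 tested, 11 were lower, 1 was higher and 7 did not pass, beside 23.4% lower and 24.0% higher of all tested genes. The gene that rose was Sgk1, a kinase that restrains removal of ENaC from the membrane, with 9145, 6558 and 6356 normalized counts in TNF+ lungs against 1997, 2338 and 1937 (log2 fold change 1.81 ± 0.16, edgeR adjusted p = 7.95e-05). These are whole-lung values, and the part of the leukocytes, whose summed markers were higher in TNF+ lungs, in this rise was not tested. Nedd4l, the ubiquitin ligase that marks ENaC for removal, was lower (1318 to 1512 against 2475 to 2995 normalized counts, log2 change -0.93, edgeR adjusted p = 0.000252).

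Bpifa1, a secreted airway protein that lowers ENaC at the surface, had the largest fall of this list (log2 fold change -2.21 ± 0.46, edgeR adjusted p = 0.0053). Wnk4, a kinase that regulates salt transporters, fell by 1.80 on the log2 scale. Adrb1, which encodes a beta-adrenergic receptor, fell by 1.71 on the log2 scale (edgeR adjusted p = 0.0002). Prss8, a membrane protease that activates ENaC by cleavage, was at 767 to 1130 normalized counts against 2178 to 2214 (log2 change -1.16, edgeR adjusted p = 0.000369). The mineralocorticoid receptor gene Nr3c2 was lower (-0.84, adjusted p = 0.0135), and the glucocorticoid receptor gene Nr3c1 did not pass (-0.36, adjusted p = 0.0527 by edgeR).

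Over all lists, 49 of 58 related genes that are not among the 9 were tested, of which 24 were lower and 5 were higher, with a median log2 fold change of -0.42. These shares stand beside the 23.4% lower and 24.0% higher of all tested genes.

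**Figure D3:**
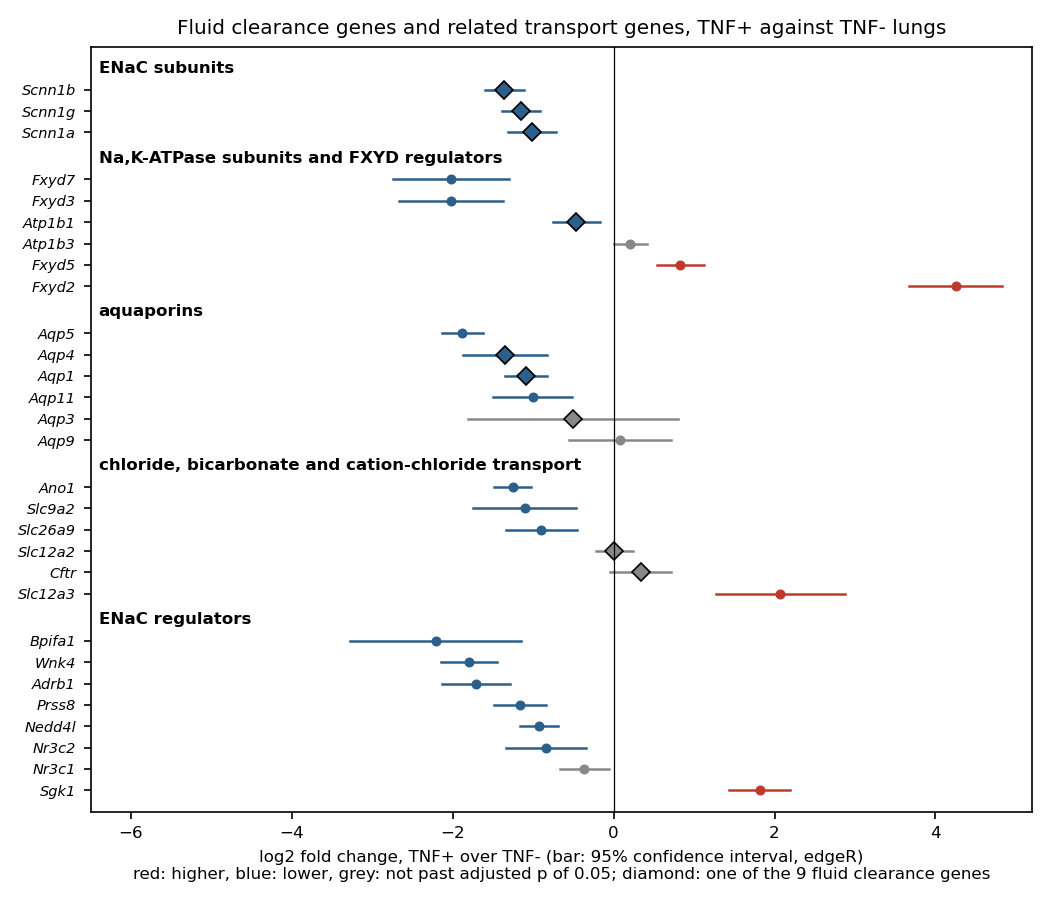
Log2 fold change between TNF+ and TNF- lungs (x axis) with its 95% confidence interval for the tested genes of the 5 lists that are named in the text (y axis), in blue where lower, in red where higher and in grey where the adjusted p was not under 0.05, with diamonds for the 9 fluid clearance genes. The ENaC subunits, Aqp1, Aqp4 and Atp1b1 are in blue, and Slc12a2, Cftr and Aqp3 are in grey.

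Sets of cell type markers gave the makeup beside which these levels stand. Their counts are to be read beside the 23.4% lower and 24.0% higher of all tested genes. All of the epithelial marker list was lower in TNF+ lungs (8 of 8, summed level 10308 to 13698 normalized counts against 28589 to 33169, 39.7% of the TNF- mean). Alveolar type 1 markers were lower in 10 of 10 cases (summed level 52785 to 62187 against 173498 to 189688, 30.7%), while of the alveolar type 2 markers 4 of 10 were lower and 0 were higher (507317 to 644376 against 712405 to 856345, 72.9%). Club cell markers were lower in 5 of 5 cases and ciliated cell markers in 6 of 6. Of 8 endothelial markers 7 were lower and 1, Emcn, was higher, and their sum was 51.0% of the TNF- mean.

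Relative to the epithelial marker sum of the same lung, Scnn1b and Aqp4 overlapped between the genotypes, with differences of -0.02 for each on the log2 scale (exact permutation p = 0.9 and adjusted p = 0.9 for both). Scnn1g overlapped as well (0.19, exact permutation p = 0.6, adjusted p = 0.7), at 0.05 without TNF+ replicate 3, at 0.056 without TNF- replicate 3 and at 0.027 with the mean of the log2 marker values in place of their sum. Scnn1a was 0.32 higher in TNF+ lungs on this relative scale, without overlap (exact permutation p = 0.1, adjusted p = 0.175). The reference decided the sign for all of these. Relative to the alveolar type 1 sum the differences were 0.69 for Scnn1a, 0.34 for Scnn1b, 0.55 for Scnn1g and 0.34 for Aqp4. There the genotypes overlapped for Aqp4 alone. Relative to the alveolar type 2 sum they were -0.56 for Scnn1a, -0.90 for Scnn1b, -0.69 for Scnn1g and -0.90 for Aqp4, and the genotypes did not overlap for any of these 4 genes. With the mean of the log2 marker values, Scnn1a was at 0.16 (exact permutation p = 0.3), Scnn1b at -0.18 and Aqp4 at -0.19. Groups fully apart give an exact permutation p of 0.1, so Scnn1a overlapped between the genotypes on this reference.

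The ratios of Cftr, Slc12a2 and Atp1b1 to the epithelial sum were higher in every TNF+ lung than in any TNF- lung, with differences between the genotypes of 1.69, 1.36 and 0.88 on the log2 scale (exact permutation p = 0.1 for each, adjusted p = 0.175). Relative to the alveolar type 2 sum the differences were 0.80 for Cftr, 0.48 for Slc12a2 and -0.00525 for Atp1b1, and the genotypes overlapped for Slc12a2 and Atp1b1. Relative to the endothelial sum they were 1.32 for Cftr, 0.99 for Slc12a2 and 0.51 for Atp1b1, without overlap. Which cells held these transcripts was not tested, so the ratios are not levels per epithelial cell. Relative to the epithelial sum Aqp3 overlapped (1.14, exact permutation p = 0.3, adjusted p = 0.42). Per Aqp4 in the same lung it overlapped too (1.16, exact permutation p = 0.3, adjusted p = 0.42). Single TNF- lungs moved both values, to 0.55 and 0.63 without replicate 2 and to 1.83 and 1.82 without replicate 1, and relative to the alveolar type 2 sum Aqp3 was at 0.25.

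Aqp1 was set against the endothelial sum. The ratio was 0.192 to 0.194 in the TNF+ lungs and 0.195 to 0.229 in the TNF- lungs, a difference of -0.12 on the log2 scale (exact permutation p = 0.1, adjusted p = 0.175). The size of this difference depended on the reference and on 1 lung, at -0.54 relative to Pecam1 alone and at -0.055 without TNF- replicate 3. Red cells and mesothelium also carry Aqp1. Erythroid markers were lower in 5 of 5 cases (summed level 246815 to 361816 normalized counts against 1013210 to 1845220). Mesothelial markers were lower in 3 of 5, while Msln (log2 change -0.04) and Wt1 (0.48) did not pass. In each genotype the erythroid sum was highest in replicate 2, the lung with the lowest Aqp1 of its genotype. The part of either cell type in the change of Aqp1 was not tested.

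**Figure D4:**
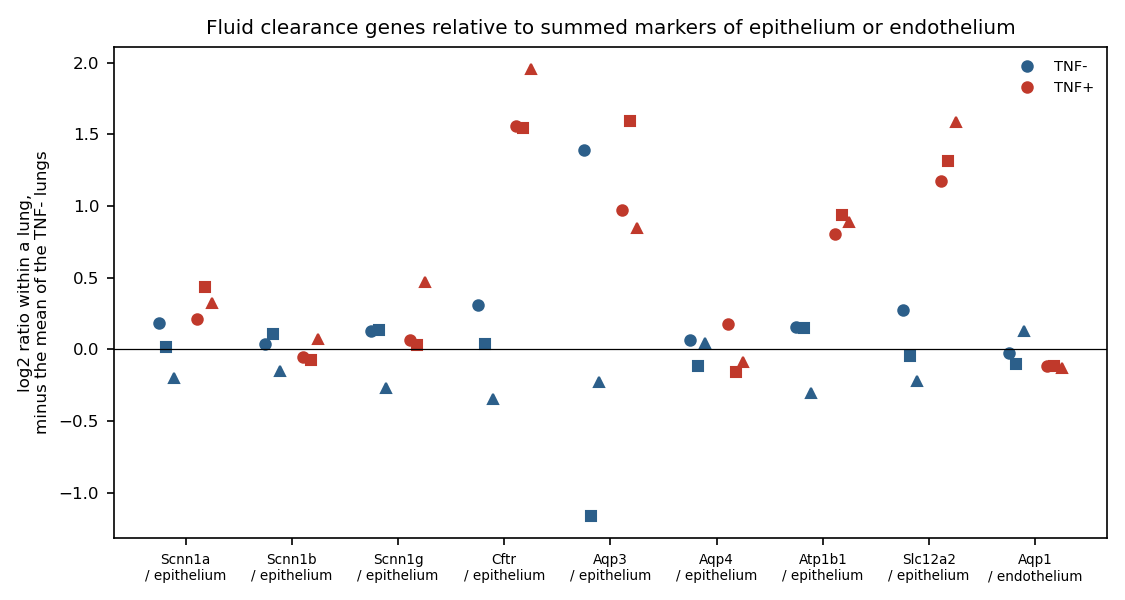
Log2 ratio of each of the 9 genes to the summed markers of epithelium, or of endothelium for Aqp1, in each lung (y axis), minus the mean of the TNF- lungs, with TNF- in blue and TNF+ in red. The symbol marks the replicate number. Cftr, Slc12a2, Atp1b1 and, by less, Scnn1a lie above the TNF- lungs in all TNF+ lungs, and Scnn1b, Scnn1g, Aqp3 and Aqp4 mix with them. The TNF+ lungs of Aqp1 lie close together, just below the lowest TNF- lung.

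Per kilobase of transcript, the order of levels in TNF- lungs was Aqp1, Scnn1a, Atp1b1, Scnn1b, Scnn1g, Slc12a2, Aqp3, Aqp4 and Cftr, from 8291 ± 335 (SD, n = 3) normalized counts per kilobase for Aqp1 to 27.4 ± 4.16 (SD, n = 3) for Cftr. In this order Aqp3 and Aqp4, and Aqp4 and Cftr, overlapped over lungs. In TNF+ lungs Aqp1 stood at 3896 ± 292 (SD, n = 3), and Cftr at 34.5 ± 2.24 (SD, n = 3) lay above Aqp4 at 10.5 to 16.7. With the mean length of the annotated transcripts in place of the longest, Cftr and Aqp4 overlapped in TNF+ lungs, and in TNF- lungs Aqp4 came before Aqp3. By the longest transcript, Aqp3 and Cftr were the neighbours that overlapped in TNF+ lungs. Slc12a2 stood at 291 ± 32.9 and 294 ± 2.31 normalized counts per kilobase (mean ± SD of 3 TNF- and 3 TNF+ lungs).

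Among 14999 genes whose mean log2 CPM reached 1 or more, those most like each of the 9 were found by the root-mean-square difference of centred log2 CPM over the 6 lungs. Nearest to Scnn1b were Aldh1a1 (0.0469) and Ager (0.0484), listed here as markers of club and alveolar type 1 cells. Close to Scnn1a lay F2rl1 (0.0435), and Scnn1g to Bmp4 (0.0346) and Trib2 (0.0412). Aqp1 lay nearest to Scrn3 (0.0392) and Chst2 (0.0419), and Aqp4 to Klf2 (0.0523) and Scgb1c1 (0.0534). Atp1b1 was nearest to Zrsr1 (0.035) and Mtcp1 (0.0413), Cftr to Gspt1 (0.0309) and Hspa5 (0.0321), and Slc12a2 to Slk (0.0241) and Eps15 (0.0327). Aqp3 had no neighbour as close, with Trim29 (0.347) and Ephx3 (0.37) nearest. A like difference between the genotypes brings genes close on this measure, which rests on 6 lungs.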

How the data were processed

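Whole lungs of 3 TNF+ and 3 TNF- mice were sequenced as 1 stranded poly(A) library each, with 100 bp single-end reads. The authors trimmed reads with Trimmomatic (0.36 in the submitters' processing notes), mapped them with STAR (2.5.2b) to GRCm38 (mm10), counted them with featureCounts per those notes, and deposited raw counts per gene symbol, without normalization. The annotation and strand setting of the counting are not given in the sources used here.

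Counts were tested with edgeR (4.0.16, R 4.3.3): filterByExpr, TMM, a quasi-likelihood fit on genotype alone, Benjamini-Hochberg adjustment over all tested genes, cutoff 0.05. The standard error is the log2 fold change divided by the square root of F. Ratios within a lung used exact two-sided permutation tests. Log2 CPM used a prior count of 2. Positions and transcript lengths are from GENCODE M21 (GRCm38), promoters from RefSeq. Total counts set the floor of 3 counts at 0.0922 to 0.118 CPM, for counting error only. Replicates of a genotype differed by more than sampling noise (chi-square per degree of freedom 53.7 to 140).

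The 9 genes and all lists were chosen with earlier results of these data known. Named genes are the 9, up to 3 rises and 3 falls per related list, genes whose role a sentence needs, the 2 nearest genes of each of the 9, and Tnf, Gm42418, Krt4 and Krt13. Alternatives were DESeq2 (1.42.0), limma-voom (limma 3.58.1), other scalings and filters, robust dispersion, a replicate block, lungs left out, Gm42418 left out, a log2 fold change minimum of 1, and, for ratios and levels, other marker references and mean transcript lengths. Some genes of the lists and of the nearest genes are not reported here. The programs were tested on simulated data.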

Additional observations from a re-analysis of the deposited data

How the results depend on the processing

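The 6 genes called lower remained lower under the 16 alternative fits, and 5 of them (Scnn1a, Scnn1b, Scnn1g, Aqp1 and Aqp4) were called in each, with adjusted p at most 0.00951. Atp1b1 was called in 14 of the 16. Cftr, Aqp3 and Slc12a2 were called in 0 of 16 (edgeR, DESeq2 and limma-voom), with unadjusted p of 0.079, 0.403 and 0.914 by edgeR. A minimum absolute log2 fold change of 1 left 5 of the 9 genes and moved the number of all genes called from 9096 to 4320. With each lung left out, 5 to 6 of the 9 genes were called, and 7347 to 9164 of all genes. The replicate block changed no call among the 9 genes (6 called, 7686 of all genes). Same-numbered lungs come from different animals, so the block is not a pairing. The deviations of same-numbered lungs correlated between -0.242 and -0.00429, too few values to tell whether same-numbered lungs shared a batch.

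Some values changed sign. The fold changes among them were not past the cutoff in any fit, and for the ratios the exact test could not pass it. Aqp3 lay between -0.92 and 0.36 with each lung left out (0.36 without TNF- replicate 1) and at 0.37 without both lungs numbered 1. Slc12a2 was at -0.0129 with DESeq2's size factors and with DESeq2, at -0.0143 with total counts only, and between -0.0414 and 0.0838 with each lung left out. Relative to the alveolar type 2 marker sum, Scnn1a was at -0.56, Scnn1g at -0.69 and Atp1b1 at -0.00525, and relative to the alveolar type 1 sum, Scnn1b and Aqp4 were at 0.34. With each lung left out, the Scnn1g to Scnn1a ratio lay between -0.27 and 0.00195, and the epithelial ratios of Scnn1b and Aqp4 between -0.0942 and 0.0342 and between -0.12 and 0.0437. With mean transcript lengths the order of levels in TNF+ lungs began with Atp1b1, Aqp1 and Scnn1a, neighbours that overlapped, as did Scnn1g and Slc12a2, and 29 of 36 pairs of genes were apart in place of 35. Counts of Aqp3, Aqp4 and Cftr were at most 242 per lung.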
